A study of Mus musculus with 16 samples.

Results

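Expression of 10 genes of the oligodendrocyte lineage was examined in the subependymal zone (SEZ), the stem cell niche along the lateral ventricle, and in olfactory bulb (OB) core tissue, the region to which its newborn neurons migrate, after deletion of the chromatin remodelling ATPase Brg1. The genes were chosen by symbol as known markers of the lineage: Pdgfra, Cspg4, Olig1, Olig2, Sox10, Sox8, Gpr17, Nkx2-2, Enpp6 and Bcas1. Each had exactly 1 probe set annotated to it alone, so 10 of the 19938 genes with a probe set of their own were followed. Total RNA was hybridised to 16 Affymetrix arrays, and values are log2 expression after RMA, a method that corrects background, equalises the distributions of the arrays and summarises the probes of each set.

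The conditional knockout (cKO) samples, 3 from SEZ and 3 from OB, carried GlastCreERT2 and Brg1fl/fl. The control samples, 5 from SEZ and 5 from OB, carried GlastCreERT2 and Brg1fl/+, except SEZ control replicate 5, whose label gives Brg1+/+. All mice were 2.5 months old and of a mixed C57BL/6 and CD1 background, and the labels state no treatment, and no source used here gives the time of recombination. GlastCreERT2 is a tamoxifen-dependent recombinase driven by the Glast locus (gene Slc1a3), which is active in astrocytes and adult neural stem cells, so only these cells and their descendants can lose Brg1, while the arrays read whole tissue. In such bulk samples fewer cells of a type and less RNA per cell cannot be told apart. The labels call the samples biological replicates without naming animals.

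Oligodendrocytes arise from dividing progenitors that carry the growth factor receptor Pdgfra and the proteoglycan NG2 (gene Cspg4). The transcription factors Olig1, Olig2, Sox10, Sox8 and Nkx2-2 specify and maintain the lineage, the receptor Gpr17 marks progenitors that have begun to differentiate, and Enpp6 and Bcas1 mark newly formed oligodendrocytes that are about to myelinate. Adult neural stem cells of the SEZ mostly give rise to neuroblasts, and loss of Brg1 in them has been reported to turn neuroblasts towards glia. The comparison of cKO with control samples asks whether such a change is visible in the lineage genes of whole tissue.

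Several arrays stood apart before any comparison. Smarca4, the gene of Brg1, lay at 10.62 to 10.77 in SEZ cKO against 10.66 to 10.78 in SEZ control samples, and at 10.97 to 11.09 in OB cKO against 10.95 to 11.06 in OB control samples, but its probe set is not resolved by exon and checks nothing about the deleted part. Slc1a3 was at 8.16 in SEZ cKO replicate 3, where the other SEZ arrays lay between 11.16 and 11.79, and at 8.85 in OB cKO replicate 3, where the other OB arrays lay between 11.64 and 12.27. Of the 8 pairs of SEZ and OB arrays with the same group and number, 7 were alike in sex-linked RNA and 1, cKO replicate 1, was not. SEZ controls 2 and 4 had 10.58 and 11.06 for the cortical neuron gene Slc17a7, and the remaining SEZ arrays had 7.84 to 8.98. Results are therefore given with and without these arrays.

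None of the 10 genes passed the test between cKO and control samples, in either tissue. In SEZ, 6 of the 10 estimates lay above 0 and 4 below, from -0.03 for Bcas1 to 0.11 for Pdgfra on the log2 scale, with a median of 0.01 against 0.00 over all genes. In OB, 6 again lay above 0 and 4 below, from -0.22 for Olig1 to 0.12 for Cspg4, with a median of 0.04 against -0.01 over all genes. Each of the 10 had an adjusted p of 0.9996 in both tissues (limma fitted to all 16 arrays, Benjamini-Hochberg over all genes), and 0 of 10 had an unadjusted p under 0.05. The background was as sparse: limma called 0 of 19938 genes in SEZ (0%), where 492 (2.47%) had an unadjusted p under 0.05, and 9 genes in OB (0.0451%), all lower, where 700 (3.51%) had an unadjusted p under 0.05.

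**Figure D1:**
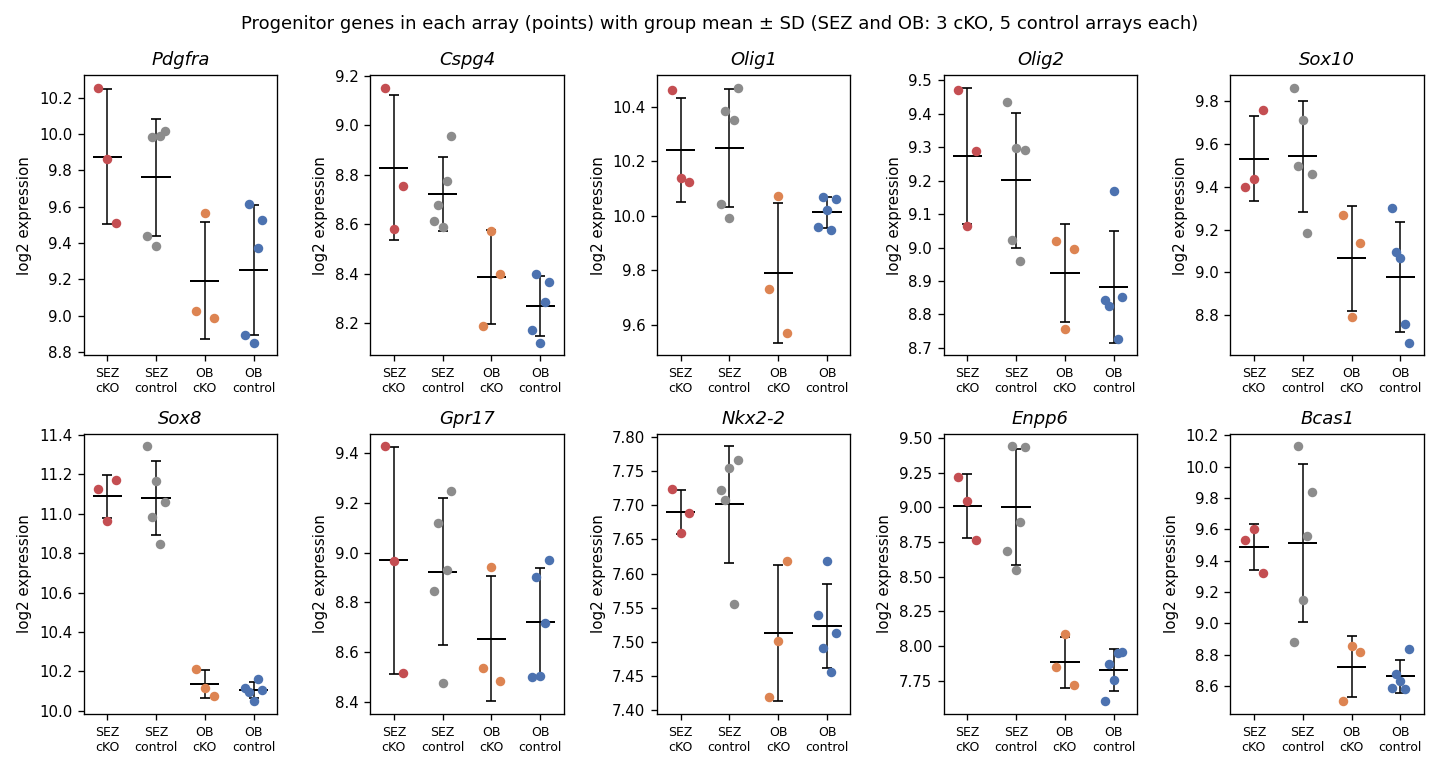
Log2 expression (vertical axis, own scale in each panel) of the 10 genes in every array, by group, with the mean and SD of each group as a line and bars. In each panel the cKO points of a tissue overlap its control points, and the SEZ groups lie higher than the OB groups, most clearly for Sox8 and Enpp6.

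The surface markers of progenitors overlapped between cKO and control samples. Pdgfra (probe set 10522503), the receptor for PDGF-AA that keeps progenitors dividing, was measured at 10.26, 9.86 and 9.51 in the 3 SEZ cKO samples, against 9.38, 9.44, 9.98, 9.99 and 10.02 in the SEZ control samples. One cKO sample was above all controls and the other two lay inside their range. The difference was 0.11 (SE 0.22, 95% interval -0.35 to 0.58). In OB, Pdgfra was at 9.03, 9.56 and 8.99 in cKO samples, against 8.85, 8.89, 9.37, 9.53 and 9.62 in control samples, so all cKO values lay within the control range (difference -0.06, 95% interval -0.52 to 0.41).

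Cspg4 (probe set 10585588), the NG2 proteoglycan, which pericytes also carry, was at 9.15, 8.58 and 8.75 in SEZ cKO samples, against 8.59, 8.61, 8.68, 8.77 and 8.96 in SEZ control samples. Its difference was 0.11 (95% interval -0.15 to 0.37). In OB it was at 8.19, 8.57 and 8.40 in cKO samples, against 8.12, 8.17, 8.28, 8.37 and 8.40 in control samples, with a difference of 0.12 (95% interval -0.14 to 0.38). The groups overlapped in both tissues.

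Among the transcription factors, Olig2 (probe set 10436823), the factor that commits cells to the lineage, averaged 9.28 ± 0.20 in SEZ cKO and 9.20 ± 0.20 in SEZ control samples (SD, n = 3 and n = 5), and the difference was 0.07 (95% interval -0.19 to 0.34). In OB it averaged 8.92 ± 0.15 in cKO and 8.88 ± 0.17 in control samples, and the difference was 0.04 (95% interval -0.22 to 0.30). Its neighbour Olig1 (probe set 10436828), a related factor of progenitor maturation, had the lowest unadjusted p of the 10 genes. Olig1 was at 9.73, 10.07 and 9.57 in OB cKO samples, against 9.95, 9.96, 10.02, 10.06 and 10.07 in OB control samples. Of the 3 cKO samples 2 lay below all controls and 1 lay above all of them, and the difference of -0.22 (SE 0.12, 95% interval -0.49 to 0.04, limma unadjusted p = 0.095) did not pass. In SEZ the Olig1 difference was -0.01 (95% interval -0.27 to 0.26).

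Sox10 (probe set 10430458), which drives myelin genes, averaged 9.53 ± 0.20 in SEZ cKO and 9.54 ± 0.26 in SEZ control samples, and 9.07 ± 0.25 in OB cKO and 8.98 ± 0.26 in OB control samples. Its differences were -0.01 in SEZ (95% interval -0.35 to 0.33) and 0.09 in OB (95% interval -0.26 to 0.43). Sox8 (probe set 10448967), a close relative of Sox10 that is also present in astrocytes, had narrow intervals, with 0.01 in SEZ (95% interval -0.18 to 0.20) and 0.03 in OB (95% interval -0.16 to 0.22). Nkx2-2 (probe set 10488366), a homeodomain factor that times differentiation, differed by -0.01 in both tissues, with 95% intervals from -0.15 to 0.13. Over both tissues the highest upper ends of these intervals were 1.10-fold for Nkx2-2 and 1.17-fold for Sox8, as averages over all cells of the tissue. Nkx2-2 had the lowest mean level of the 10 genes, at percentile 41.9 of all genes. Whether its low signal narrowed its interval was not tested.

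The genes of differentiating cells were not called either. Gpr17 (probe set 10457963) was at 9.43, 8.97 and 8.52 in SEZ cKO samples, against 8.48, 8.84, 8.93, 9.12 and 9.25 in SEZ control samples, and differed by 0.05 (95% interval -0.36 to 0.46). In OB it differed by -0.07 (95% interval -0.48 to 0.34). Enpp6 (probe set 10571715), a choline phosphodiesterase of cells starting to myelinate, ranged from 8.76 to 9.22 in SEZ cKO and from 8.55 to 9.44 in SEZ control samples, and differed by 0.01 (95% interval -0.38 to 0.40). In OB it averaged 7.88 ± 0.19 in cKO and 7.83 ± 0.15 in control samples, and the difference was 0.06 (95% interval -0.34 to 0.45). Bcas1 (probe set 10490061), a protein of early myelinating cells, ranged from 9.32 to 9.60 in SEZ cKO samples, inside the range of 8.88 to 10.13 in SEZ control samples. Its differences were -0.03 in SEZ (95% interval -0.45 to 0.40) and 0.06 in OB (95% interval -0.37 to 0.49).

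The widest upper bounds were those of Pdgfra in SEZ, at 1.49-fold, and of Bcas1 in OB, at 1.40-fold. These are ends of intervals and not detection limits. No difference of the cKO effect between the tissues passed for the 10 genes. The difference of the effects (SEZ minus OB) ran from -0.10 for Sox10 to 0.21 for Olig1, each with a limma adjusted p of 0.9998, and 0 of 10 had an unadjusted p under 0.05. Over all genes limma called 1 of 19938 (0.005%), and 296 (1.48%) had an unadjusted p under 0.05.

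Without the arrays that stood apart, 0 of 10 genes were called in each tissue, but single estimates moved. Pdgfra in SEZ, at 0.11 with all arrays, was at 0.30 without cKO replicate 3, at -0.08 without cKO replicate 1 and at 0.26 without SEZ control replicates 2 and 4, so its interval given above rests on which arrays are used. Gpr17 in SEZ, at 0.05 with all arrays, was at 0.27 without cKO replicate 3 and at -0.18 without cKO replicate 1. Without cKO replicate 3 of both tissues, which had low Slc1a3, the medians of the 10 differences were 0.06 in SEZ and 0.03 in OB. Without cKO replicate 1 of both tissues they were -0.05 and 0.01, and without SEZ control replicates 2 and 4 the SEZ median was 0.09. SEZ control replicate 5, labelled Brg1+/+, had the highest mean over the 10 genes of the SEZ control samples, at 9.55. Fits that left out 1 SEZ array at a time, this one among them, called 0 of 10 genes in SEZ. Their SEZ medians ran from -0.05 to 0.08.

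Other genes of the lineage, from lists drawn up with earlier results of these data known, were not called either. Of 19 further measured progenitor genes 0 passed in SEZ (12 estimates above 0, median 0.04) and 0 in OB (11 above 0, median 0.01). Within that list Megf11, an adhesion receptor, was at 0.22 in SEZ (SE 0.07, limma adjusted p = 0.9996), with each SEZ cKO sample above each SEZ control sample, a separation found in that direction for 0.943% of all genes. Vcan and the retinoid-binding protein gene Rlbp1 had each OB cKO sample below each OB control sample, a separation found in that direction for 1.57% of all genes. In OB the extracellular matrix proteoglycan Vcan was at -0.66 (SE 0.16, adjusted p = 0.436), the AMPA receptor auxiliary subunit Cacng4 at -0.34 (SE 0.11, adjusted p = 0.9996), Lhfpl3 at 0.35 (SE 0.13, adjusted p = 0.9996) and Rlbp1 at -0.18 (SE 0.09, adjusted p = 0.9996). Of 18 genes of newly formed oligodendrocytes, 0 passed in SEZ (7 above 0, median -0.02) and 0 in OB (6 above 0, median -0.04), and of 18 myelin genes 0 passed in SEZ (5 above 0, median -0.03) and 0 in OB (6 above 0, median -0.03).

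Some neuroblast genes were lower in OB cKO than in OB control samples. Of 19 measured genes of migrating neuroblasts, a list that holds genes already known to be low in these samples and so lends no independent support, 5 were called lower in OB cKO samples and 0 higher, where 0.0451% of all genes were called. They were the prokineticin receptor Prokr2 (-1.92), the surface glycoprotein Cd24a (-1.50), the polysialyltransferase St8sia2 (-0.84), Nrep (-0.71) and the tubulin Tubb2b (-0.58), with limma adjusted p from 0.000629 to 0.0394. Dlx1 (-0.08), Dlx5 (-0.03), Sp8 (0.04), Sp9 (-0.03), Ncam1 (-0.03) and Meis2 (-0.06), named here after their values were seen, were near 0 in OB. Over the whole list 18 of the 19 estimates lay below 0 in OB. Of the 19, 10 had an unadjusted p under 0.05 (limma), where 3.51% of all genes did. For 10 each OB cKO sample lay below each OB control sample, against 1.57% of all genes. In SEZ, Dlx1 was at -0.56 (limma adjusted p = 0.9996). The list median was -0.32 in OB and -0.13 in SEZ, where 0 of the 19 passed and 17 lay below 0. In the same OB arrays the 10 lineage genes had a median of 0.04. Leaving out OB cKO replicate 3 reduced the neuroblast genes called to 1, and leaving out control replicate 2, 4 or 5 of OB reduced them to 3, while the number of lineage genes called stayed at 0.

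**Figure D2:**
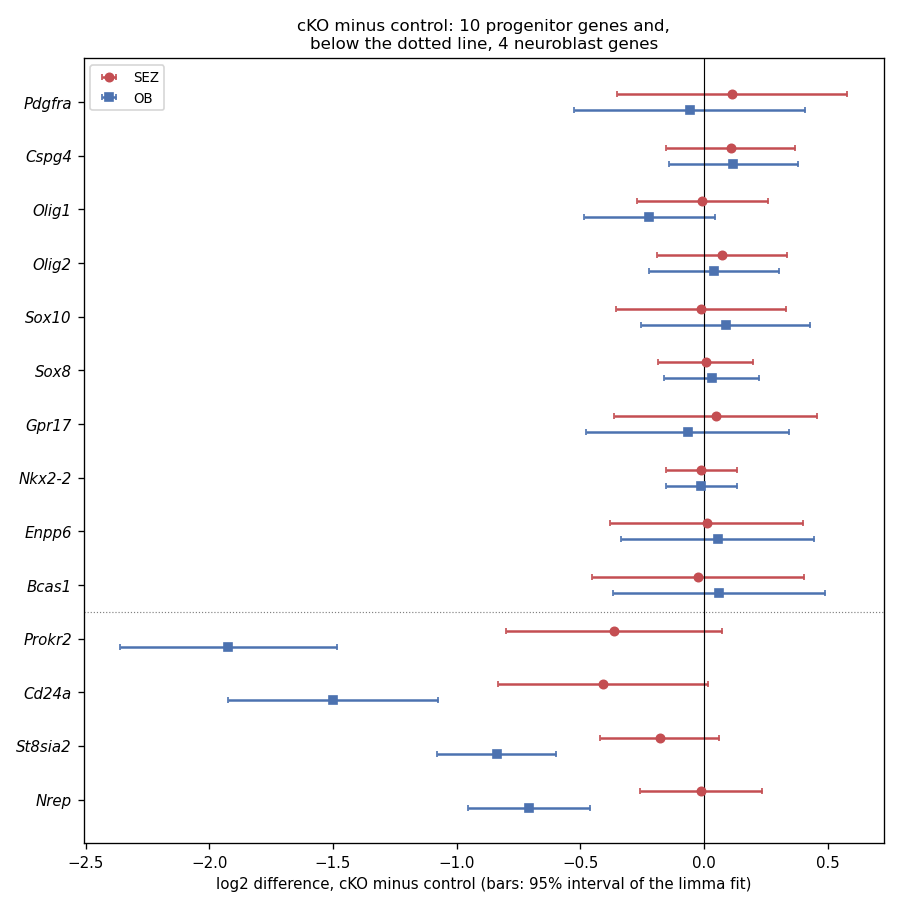
Log2 differences between cKO and control samples (horizontal axis) for the 10 lineage genes and, under the dotted line, 4 neuroblast genes, with 95% intervals, in SEZ (circles) and OB (squares). All 20 intervals of the lineage genes span 0. The 4 neuroblast genes lie at -1.92 to -0.71 in OB. They were picked for the smallest p in OB, from a list that holds genes already known to be low, so their position lends no support.

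Markers of other cell types that could carry some of these genes were also compared. None of the 8 pericyte genes (medians 0.05 in SEZ and 0.05 in OB), 8 meningeal fibroblast genes (0.01 and 0.05), 14 astrocyte genes (0.03 and 0.00), 10 microglia genes (0.00 and -0.17) or 10 ependymal genes (0.10 and -0.04) passed in either tissue. In OB, 9 of the 10 microglia genes lay below 0 and 4 had an unadjusted p under 0.05 (limma), where 3.51% of all genes did, and their part in the OB values was not tested. Of 7 cortical neuron genes 0 passed, with medians of -0.51 in SEZ and 0.04 in OB. In SEZ, 6 of these 7 lay below 0 and 7 of the 10 ependymal genes above 0. An unadjusted p under 0.05 (limma) was found in SEZ for 2 and 3 of them, where 2.47% of all genes had one. In OB all 8 pericyte genes lay above 0, 0 of them with an unadjusted p under 0.05. The part of these lists was not tested either. The meningeal fibroblast list, whose cells also express Pdgfra, was uneven among OB arrays, with array means from 7.22 to 8.15 in OB cKO and from 7.03 to 8.08 in OB control samples. After each group's mean was removed, Pdgfra correlated with that list at r = -0.17 and Cspg4 with the pericyte list at r = 0.23 over the 16 arrays, as a description.

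Most of the 10 genes were called lower in OB than in SEZ in control samples, and fewer in cKO samples. In OB control samples all 10 had lower estimates than in SEZ control samples, and 7 were called lower and 0 higher, where 14.9% of all genes were called lower and 12.6% higher (limma, 27.5% in either direction). The median difference, OB minus SEZ, was -0.48 over the 10 genes and 0.00 over all genes. In cKO samples 5 were called lower and 0 higher, where 13.1% of all genes were called lower and 10% higher (23.1% in either direction), with a median of -0.46 over the 10 genes and -0.02 over all genes. Both comparisons use different arrays, 5 against 5 and 3 against 3. The count in cKO samples depended on the fit. It was 8 with the replicate number as a fixed block, and 8 with group and number together as a random block. The count over all genes also moved between alternative fits, from 1572 to 6629 against 4614 in the main fit.

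Enpp6 had the largest difference of the 10. It was at 7.85, 8.08 and 7.72 in OB cKO samples, against 9.22, 9.05 and 8.76 in SEZ cKO samples, and at 7.60, 7.76, 7.87, 7.95 and 7.96 in OB control samples, against 8.55, 8.68, 8.89, 9.44 and 9.44 in SEZ control samples. No OB value reached a SEZ value. The OB level was 0.458 times the SEZ level in cKO samples (log2 -1.13, SE 0.21, limma adjusted p = 0.000549) and 0.444 times in control samples (log2 -1.17, SE 0.16, adjusted p = 1.94e-05).

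Sox8 was at 10.21, 10.12 and 10.08 in OB cKO samples, against 11.13, 10.96 and 11.17 in SEZ cKO samples (log2 -0.95, SE 0.10, limma adjusted p = 1.67e-06). In OB control samples it ranged from 10.05 to 10.16, against 10.85 to 11.34 in SEZ control samples (log2 -0.97, SE 0.08, adjusted p = 3.47e-08). Bcas1 followed, with -0.76 in cKO (SE 0.23, adjusted p = 0.0208) and -0.85 in control samples (SE 0.18, adjusted p = 0.00121). Without OB cKO replicate 1 or SEZ cKO replicate 1 or 2, Bcas1 no longer passed in cKO samples, with adjusted p from 0.0641 to 0.0962.

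The remaining genes had smaller differences. Cspg4 was lower in OB in both genotypes, by a log2 of -0.44 in cKO (adjusted p = 0.0273) and -0.45 in control samples (adjusted p = 0.00358). Sox10 passed in control samples (-0.56, adjusted p = 0.00544) and not in cKO samples (-0.47, adjusted p = 0.0777), and Olig1 the other way, with -0.45 in cKO (adjusted p = 0.0263) and -0.24 in control samples (adjusted p = 0.126). These pairs were not shown to differ between the genotypes, since none of the 10 passed the test of that difference. Olig2 (-0.32, adjusted p = 0.0357) and Nkx2-2 (-0.18, adjusted p = 0.0311) were called lower in OB controls, calls that were lost in most fits without 1 control array. Pdgfra was at -0.68 in cKO and -0.51 in control samples, with adjusted p of 0.0568 and 0.0575, and Gpr17 was at -0.32 and -0.20 and did not pass. Leaving out single cKO arrays reduced the calls in cKO samples to 2 (without OB cKO replicate 1 or SEZ cKO replicate 1) or 3 (without OB cKO replicate 3). Fits without 1 cKO array called 3605 to 4855 genes over all, against 4614 with every array.

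In control samples, 4 of the 10 genes (Cspg4, Sox8, Enpp6 and Bcas1) had every OB value below every SEZ value, against 11.9% of all genes. In cKO samples 8 did, all but Pdgfra and Gpr17, against 19% of all genes. By the size of the difference in controls the order from the largest fall was Enpp6, Sox8, Bcas1, Sox10, Pdgfra, Cspg4, Olig2, Olig1, Gpr17 and Nkx2-2, and the 95% intervals of neighbours in this order overlapped throughout. The intervals of Enpp6 and Sox8 did not overlap those of Cspg4, Olig2, Olig1, Gpr17 or Nkx2-2.

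**Figure D3:**
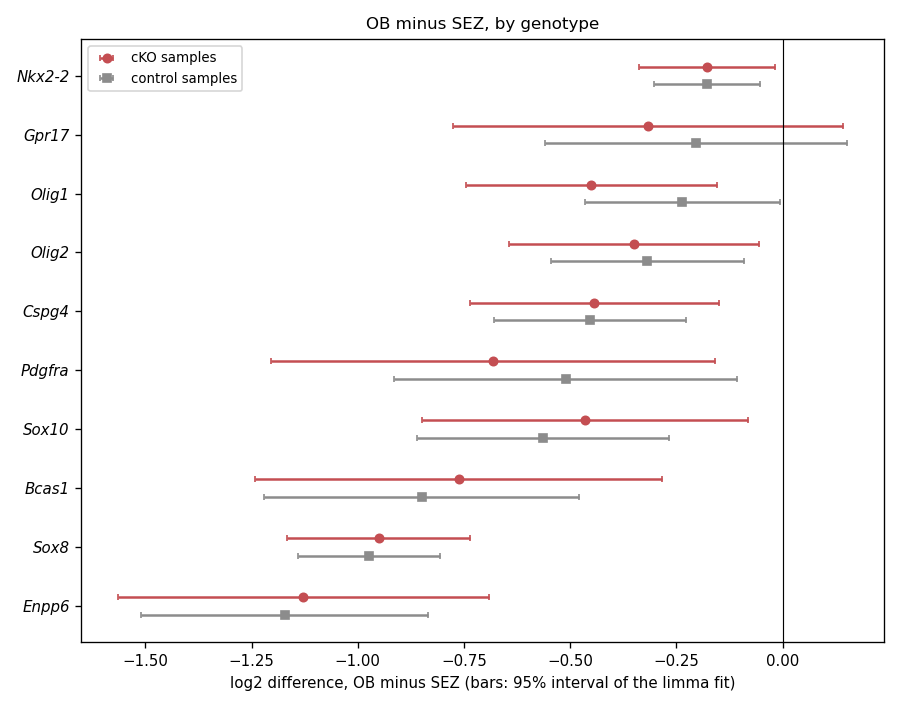
Log2 difference between OB and SEZ (horizontal axis) for each of the 10 genes in cKO samples (circles) and control samples (squares), with 95% intervals. All 20 estimates lie below 0, from -0.18 for Nkx2-2 to -1.17 for Enpp6.

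Other cell type lists differed between the tissues as well. Of 18 myelin genes 17 were lower in OB than in SEZ in cKO samples and 17 in control samples, with medians of -1.15 and -1.15, among them Fa2h (-1.34) and Mog (-1.12) in controls. The array means of the myelin list lay between 9.72 and 10.07 in OB cKO against 10.81 and 11.16 in SEZ cKO samples, and between 9.85 and 10.03 in OB control against 10.70 and 11.33 in SEZ control samples. Of the wider progenitor list, 4 genes were higher and 5 lower in OB in cKO samples, and 6 higher and 4 lower in control samples, so it did not move one way. Its members included the cell adhesion molecule Dscam (1.73) and Cacng4 (-1.09), both also expressed by neurons. Of the newly formed oligodendrocyte list 5 were higher and 5 lower in cKO samples, and 6 higher and 5 lower in control samples, with the myelin regulator Myrf at -1.04 and the kinase gene Fyn, active in many neurons, at 0.91.

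Ependymal genes (10 of 10 in cKO and 10 of 10 in control samples) and microglia genes (5 of 10 in cKO and 6 of 10 in control samples) were also lower in OB. The array means of the ependymal list lay between 6.91 and 6.95 in OB cKO against 7.73 and 7.98 in SEZ cKO samples, and those of the microglia list between 8.70 and 9.06 in OB cKO against 9.22 and 9.39 in SEZ cKO samples. In control samples the ependymal means lay between 6.89 and 7.02 in OB against 7.64 and 7.96 in SEZ, and the microglia means between 8.90 and 9.16 in OB against 9.15 and 9.45 in SEZ. The part of the ependymal and microglia genes in the tissue difference was not tested. Other lists were higher in OB, with 13 of 19 neuroblast genes called higher and 1 lower in cKO samples and 16 higher and 1 lower in control samples (medians 0.51 and 0.94), and 5 of 7 cortical neuron genes higher in cKO and 4 of 7 in control samples (medians 1.44 and 0.86). With the mean of the myelin list as a covariate the median over the 10 lineage genes was 0.28 in cKO and 0.21 in control samples, and in control samples 2 were called lower and 2 higher. The covariate itself separates the tissues without overlap, so that fit carries the relation within groups far beyond its range.

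Sequence upstream of the start was taken from the RefSeq promoter table of GRCm38.p6 for 6 of the 10 genes. These were Cspg4, Enpp6, Nkx2-2, Olig2, Pdgfra and Sox8. Olig1, Sox10, Gpr17 and Bcas1 were not searched. The 250 bases before the listed start were searched on both strands for ACAATG and ACAAAG, letters of the core motif bound by Sox proteins, and for CAGCTG, a form of the E-box to which basic helix-loop-helix proteins such as Olig2 bind. ACAATG occurred once in Enpp6 and once in Olig2 and not in the other 4 of the 6, where 10.7% of 32851 listed promoters hold it. ACAAAG occurred in 0 of the 6 (16.5% of all promoters), as did CAGCTG (13.0% of all promoters). The 2 promoters with a match are shown because Enpp6 had the largest difference between the tissues and Olig2 one of the smaller ones that passed, with the match in capitals, 5′ to 3′ on the gene's strand. Enpp6 lies on the plus strand of chr8:46986637-46986886 and Olig2 on the plus strand of chr16:91225300-91225549.
Enpp6: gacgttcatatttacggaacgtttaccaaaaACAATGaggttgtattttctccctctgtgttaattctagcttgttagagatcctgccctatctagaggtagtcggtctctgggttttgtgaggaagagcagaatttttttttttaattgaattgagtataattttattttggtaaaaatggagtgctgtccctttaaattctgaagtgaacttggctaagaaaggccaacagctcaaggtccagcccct
Olig2: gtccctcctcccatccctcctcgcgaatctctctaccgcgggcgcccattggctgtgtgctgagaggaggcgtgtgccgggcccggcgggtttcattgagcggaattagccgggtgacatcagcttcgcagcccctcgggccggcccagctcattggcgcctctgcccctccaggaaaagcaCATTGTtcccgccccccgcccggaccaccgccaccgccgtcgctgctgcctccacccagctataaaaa
The match starts 219 bases before the start in Enpp6 and 68 bases before it in Olig2. In Olig2 the gene's strand reads CATTGT and the opposite strand reads ACAATG. The starts listed for Enpp6, Pdgfra and Nkx2-2 lie inside the annotated genes. A match is a description of letters and not of a bound site.

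Within groups the 10 genes did not vary as one set. After each group's mean was removed, Pdgfra deviated together with Cspg4, Olig1, Gpr17, Enpp6 and Bcas1, and opposite to Olig2, Sox10, Sox8 and Nkx2-2, over the 16 arrays. The 15 pairs among the first 6 genes had correlations from 0.39 to 0.91, the highest between Pdgfra and Gpr17. The 6 pairs among the other 4 had correlations from 0.23 to 0.63, and the 24 pairs across the sets from -0.77 to 0.08, the lowest between Pdgfra and Sox10. The sets were formed from these same values, so the correlations carry no test. The labels do not say whether any arrays share a dissection. For cKO replicate 1 the sex-linked RNA Xist was at 12.398 in SEZ and 6.075 in OB, so these arrays, as labelled, do not share an animal. Other arrays of the same group and number may share an animal.

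The arrays behind this pattern occurred in every group. The mean of the Pdgfra set deviated by 0.27 in SEZ cKO replicate 1 and by -0.24 in SEZ cKO replicate 3, against 0.26 and 0.30 in SEZ control replicates 2 and 5 and -0.28 and -0.34 in SEZ control replicates 1 and 3. In OB the widest deviations were 0.24 in cKO replicate 2 and -0.17 in control replicate 1. They followed the strongest component of the group-centred values of all genes, which held 41.0% of that variance. Pdgfra correlated with the component at r = 0.96, Gpr17 at 0.84, Sox10 at -0.86 and Olig2 at -0.61, and 9 of the 10 genes exceeded 0.5 in size, as did 46.7% of all genes. With the component as a covariate, 0 of the 10 genes were called between cKO and control samples in either tissue.

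**Figure D4:**
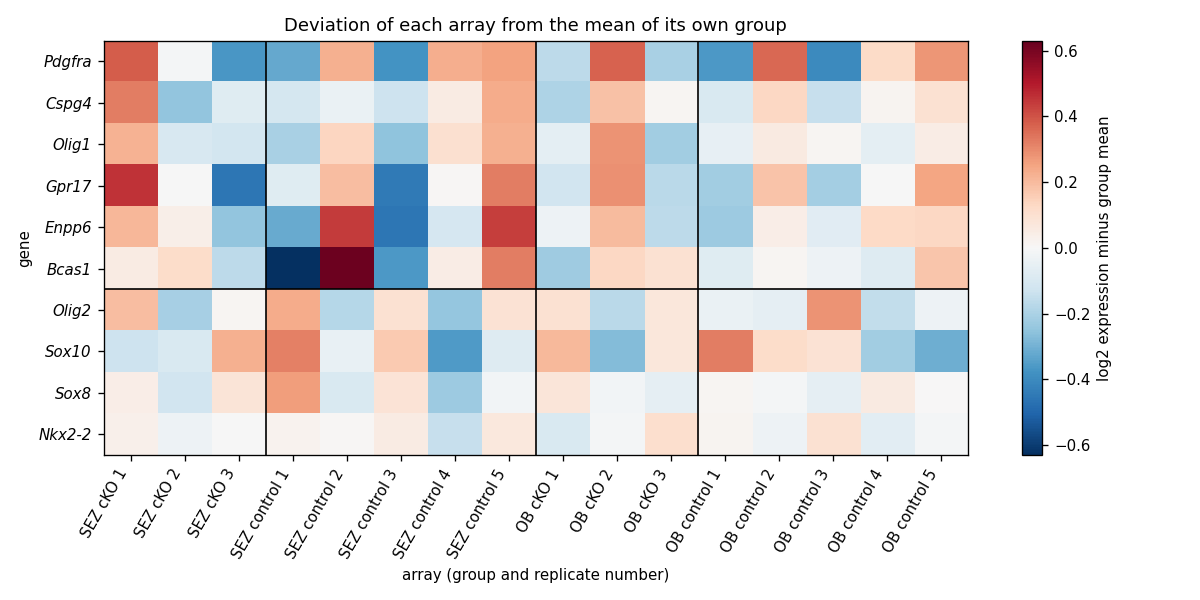
Deviation of each array (columns, by group and replicate) from the mean of its own group, in log2 units as colour, for the 10 genes (rows). The 6 genes above the line move together and mostly opposite to the 4 below it, for example with a Pdgfra set mean of 0.24 and a Sox10 set mean of -0.12 in OB cKO replicate 2.

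The group-centred levels of other cell type lists moved with the first set in some cases and against it in others. Pdgfra correlated with the means of the wider progenitor list (r = 0.88), the microglia list (0.83), the astrocyte list (0.78) and the myelin list (0.73). Sox10 correlated with the same lists, in that order, at r = -0.41, -0.79, -0.32 and -0.51. Enpp6, Bcas1, Olig1 and Gpr17 were closest to the myelin list, at r = 0.91, 0.86, 0.85 and 0.83. Gpr17 was also at 0.83 with the wider progenitor list. The ependymal list ran opposite to all 6 genes of the first set, at r from -0.77 for Enpp6 to -0.41 for Cspg4. The neuroblast list lay between -0.39 for Bcas1 and -0.06 for Cspg4, and the meningeal fibroblast list between -0.23 for Cspg4 and -0.10 for Olig1. The part of these cell types or of the array component in the differences was not tested beyond the covariate fits above. Among genes outside the set, those whose group-centred levels were most like the mean of the 10 over the 16 arrays were Kat2b (r = 0.96), Adcy8 (0.96), Slc6a11 (0.94), Dipk2a (0.93) and Kcnj10 (0.93). The closest gene to Pdgfra alone was Atp5a1 (0.98), to Sox10 alone Mdk (0.97) and to Enpp6 alone Sema4d (0.96).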

How the data were processed

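Total RNA from 16 tissue samples was hybridised to one-colour Affymetrix arrays by the authors. The deposited log2 values per probe set were made with RMA in Affymetrix Expression Console 1.2, per the submitters' processing notes, and the sources used here name no genome build. Precision is limited by how many arrays there are. Probe sets with 1 gene symbol in the platform annotation were kept (21789 of 35556), and the brightest was used where a gene had several, which left 19938 genes. The model, fitted in limma 3.58.1 (R 4.3.3) to the 16 arrays jointly, had 4 groups of tissue by genotype, two-sided tests, and Benjamini-Hochberg adjustment over all genes at 0.05. The fit was tested on simulated data with independent noise in each gene. That simulation did not hold the variation shared by many genes that the strongest component describes. Besides Smarca4 and Slc1a3, the genes named are the 10, up to 4 of each list with the smallest p, and those most alike in pattern. Tubb2b, Dlx1, Dlx5, Sp8, Sp9, Ncam1, Meis2 and Slc17a7 fall outside this rule and were chosen after their values were seen. The members and lists (wider progenitor, newly formed oligodendrocyte, myelin, neuroblast, astrocyte, pericyte, meningeal fibroblast, microglia, ependymal and cortical neuron) were chosen with earlier results of these data known.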

Additional observations from a re-analysis of the deposited data

Results flagged for a closer look

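Of 20 control groups examined (10 genes in 2 tissues), 2 held an array set apart from the other 4 by most of the group's range, and chance alone gives about 1 in 20. Olig2 was at 9.168 in OB control replicate 3, where the next highest OB control sample was at 8.851. Nkx2-2 was at 7.555 in SEZ control replicate 4, where the next lowest SEZ control sample was at 7.708.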

How the results depend on the processing

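No alternative called any of the 10 genes between cKO and control samples in either tissue, or in the difference of the effects. Over all genes, the SEZ count of 0 became 1 with array medians centred, 2 with the replicate number as a fixed block and 4 with the array component as a covariate, the last chosen after seeing the data. The OB counts of 9 genes and 5 neuroblast genes became 3 and 1 on OB arrays alone, 5 and 3 with cyclic loess, with the fixed replicate block, without SEZ controls 2 and 4 or without cKO 1 of both tissues, 2 and 1 without cKO 3 of both tissues, and 28 and 8 with the component. Without single arrays they ran from 2 to 9 and from 1 to 5. The count of 1 for the difference of effects became 2 with array weights or the component and 0 with the cortical neuron covariate or without SEZ controls 2 and 4, cKO 3 or cKO 1, and ran from 0 to 2 without single arrays.

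For OB minus SEZ in controls, the 7 lineage genes called became 4 with the myelin covariate and 3 with the cortical neuron covariate (2574 genes over all, against 5491), and 5 to 7 without single arrays. In cKO samples the 5 became 3 on cKO arrays alone or without cKO 3, 2 without cKO 1 (2996 genes over all, against 4614), 8 with array medians centred, an adjusted p under 0.1, the component or either replicate block, 3 with the myelin covariate (2948 genes), 0 with the cortical neuron covariate (1572 genes), and 2 to 6 without single arrays. With the myelin covariate the medians became 0.21 in controls and 0.28 in cKO samples, and the sign turned in controls for Pdgfra (0.89), Cspg4 (0.15), Olig1 (0.63), Gpr17 (1.19), Enpp6 (0.27) and Bcas1 (0.65), and in cKO samples for Pdgfra (0.78), Cspg4 (0.19), Olig1 (0.45), Gpr17 (1.14), Enpp6 (0.38) and Bcas1 (0.80). With the cortical neuron covariate Olig2 was at 0.145 in cKO samples and 0.0354 in controls, and Nkx2-2 at 0.0289 in cKO samples. Both covariates separate the tissues, and the cause of the other changes was not tested. The counts over all genes moved too. Without single arrays they ran from 4910 to 5516 in controls and from 3605 to 4855 in cKO samples. In the other fits they ran from 2574 to 7241 in controls and from 1572 to 6629 in cKO samples. Same-numbered SEZ and OB arrays had correlations of their deviations from -0.06 to 0.57, and 2 of 8 were closest to their own number. The numbers were therefore not taken as pairs. However, 7 of the 8 were alike in sex-linked RNA and both cKO 3 arrays had low Slc1a3. The cKO 1 arrays, unlike in sex-linked RNA, do not share an animal as labelled. Whether the other same-numbered arrays share an animal is not known from the labels.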
